A study of Mus musculus with 18 samples.

Results

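The cornified envelope and squamous genes described here are a set of mouse genes chosen by their symbols alone: the small proline-rich (Sprr), late cornified envelope (Lce), stefin A and cystatin-like (Stfa, Cstdc), kallikrein (Klk4 to Klk14), Serpinb and transglutaminase (Tgm1 to Tgm7) families, together with Ivl, Lor, Cnfn, Cdsn, Trex2, Csta1, Calml3, Flg, Crct1, Dsg3, Dsc2 and Dsg1a, and without keratins. The rule found 109 members among the 56893 genes of the Torin experiment and 99 among the 56691 features of the estradiol experiment. RNA came from organoids grown from mammary epithelial cells of wild-type, nulliparous C57BL/6 mice, in 18 libraries of 6 groups with 3 libraries each. In the estradiol experiment, organoids of mice of about 24 weeks received ethanol or 10 nM estradiol, which acts through the estrogen receptors, for 11 days of a culture of 12 days. In the Torin experiment, organoids of mice of about 15 weeks received DMSO or 100 nM Torin 1, which blocks the kinase mTOR, and were collected after 18 days in Matrigel. The sample titles read the arms D6 and D12 of that experiment as 6 and 12 days of treatment, the series design reads them the other way round, and the batch tags of the labels follow the titles, so batch, length and start of treatment cannot be told apart. The labels do not say whether the 3 libraries of a group came from separate mice, so p-values measure the spread between these libraries only.

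The cornified envelope is the protein shell that replaces the plasma membrane when a squamous cell, such as a keratinocyte of the skin, ends its differentiation. Precursors such as involucrin, loricrin and the small proline-rich proteins are joined to each other by transglutaminases, neighbouring cells are held together by corneodesmosomes, and kallikrein proteases cut these when cells are shed, held in check by protease inhibitors. The mammary gland is lined by luminal and basal cells and forms no cornified layer in its normal state, but mammary epithelium can show squamous change, and it carries many of the same desmosomal and serpin genes.

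Total counts per library ran from 20637473 to 24312079 in the estradiol and from 23239364 to 28910688 in the Torin experiment. Values below are CPM, which divide counts by the total of the library after TMM scaling. They allow libraries to be compared for 1 gene but not genes with each other, because gene length is not taken into account. Genes were tested with edgeR's quasi-likelihood test, log2 fold changes carry the standard error of the fit, and the words rose and fell are used for a Benjamini-Hochberg adjusted p under 0.05 over all genes tested. Torin library 3 of each arm stood apart. The biological coefficient of variation over all genes was 32.7% in Torin D6 and 11% without library 3, 16.1% in Torin D12 and 10.8% without library 3, and 4.92 to 10.3% in the other groups. Markers of both epithelial layers were present: Krt8, a luminal keratin, had a group mean of 1080 to 2540 CPM, and Krt5, a basal keratin, had one of 75.3 CPM in Torin D6 and of 379 to 3990 CPM in the others. A list of 16 fibroblast markers was also detected in full, at a summed 2210 to 3100 CPM. In such bulk RNA, fewer cells of a type and less RNA per cell cannot be told apart.

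Most of the set was silent or close to it. In the estradiol experiment 29 of the 99 members had no count, 26 had 1 to 9 counts over all 6 libraries and 44 had 10 or more. In the Torin experiment 25 of 109 had no count, 33 had 1 to 9 and 51 had 10 or more. The low-count filter kept 29 of the 99 members in the estradiol experiment, beside 15358 of all 56691 features. In the Torin experiment it kept 37 of 109, beside 18112 of all 56893 genes. These parts are similar, so low counts were not particular to the set. Of the members kept, 27 were tested in both experiments, and 70 members were tested in neither. The Lce family, whose proteins are built into the envelope in the outermost living layers of the skin, was the emptiest: 13 of its 21 genes had no count with estradiol or ethanol, 7 had none with Torin or DMSO, no library reached a summed 1 CPM for the family, and Lce1g in the Torin experiment was its one tested member. Cnfn, which encodes cornifelin, had 9 counts in the estradiol experiment, 4 of them in the estradiol libraries, and 7 counts in the Torin experiment, all of them in DMSO libraries. All members together made up 901 to 946 CPM in ethanol and 996 to 1050 CPM in estradiol libraries. In the Torin experiment they made up 806 to 920 CPM in DMSO D6 against 534 to 622 CPM in Torin D6, and 987 to 1030 CPM in DMSO D12 against 538 to 660 CPM in Torin D12. Serpinb5 alone gave between 217 and 432 CPM of these sums, and without it the 3 DMSO libraries still lay above the 3 Torin libraries in both arms, at 456 to 524 against 317 to 351 CPM in D6 and 561 to 605 against 297 to 356 CPM in D12.

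Torin 1 was followed by lower levels of much of the detected set, and estradiol by changes in both directions. Of the 29 members tested with estradiol, 7 rose and 10 fell, beside 17.4% of all tested genes that rose and 16.6% that fell. In arm D6 of the Torin experiment 4 of 37 members rose, beside 19.8% of all genes, and 17 fell, beside 19.3%. In arm D12, 1 of 37 members rose, beside 10.8% of all genes, and 21 fell, beside 14.6%. The median log2 fold change of the tested members was 0.01 with estradiol, -1.22 in D6 and -1.37 in D12, and that of all tested genes was -0.006, 0.048 and 0.012. In D12 this median includes Sprr2a1, which had no count in the Torin libraries. The median was -1.37 also with that gene set to a floor of 3 counts over the group. The filter favours members that are high in 1 group, so these counts describe the members that passed it. In the Torin arms 11 members fell in both, 6 fell in D6 alone and 10 fell in D12 alone by the threshold, 1 rose in both, 3 rose in D6 alone, and 6 passed in neither. Shares of all genes for these combinations were not computed, so whether these counts are unusual was not tested. Without the third Torin library of each arm, an omission chosen after the data were seen, 39 members were tested. Then 4 rose and 21 fell in D6, beside 19.8% and 21.6% of all genes, and 2 rose and 23 fell in D12, beside 17.5% and 18%. All 4 rises of D6 and all 21 falls of D12 were among these, and of the 17 falls of D6 all but that of Serpinb12.

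**Figure D1:**
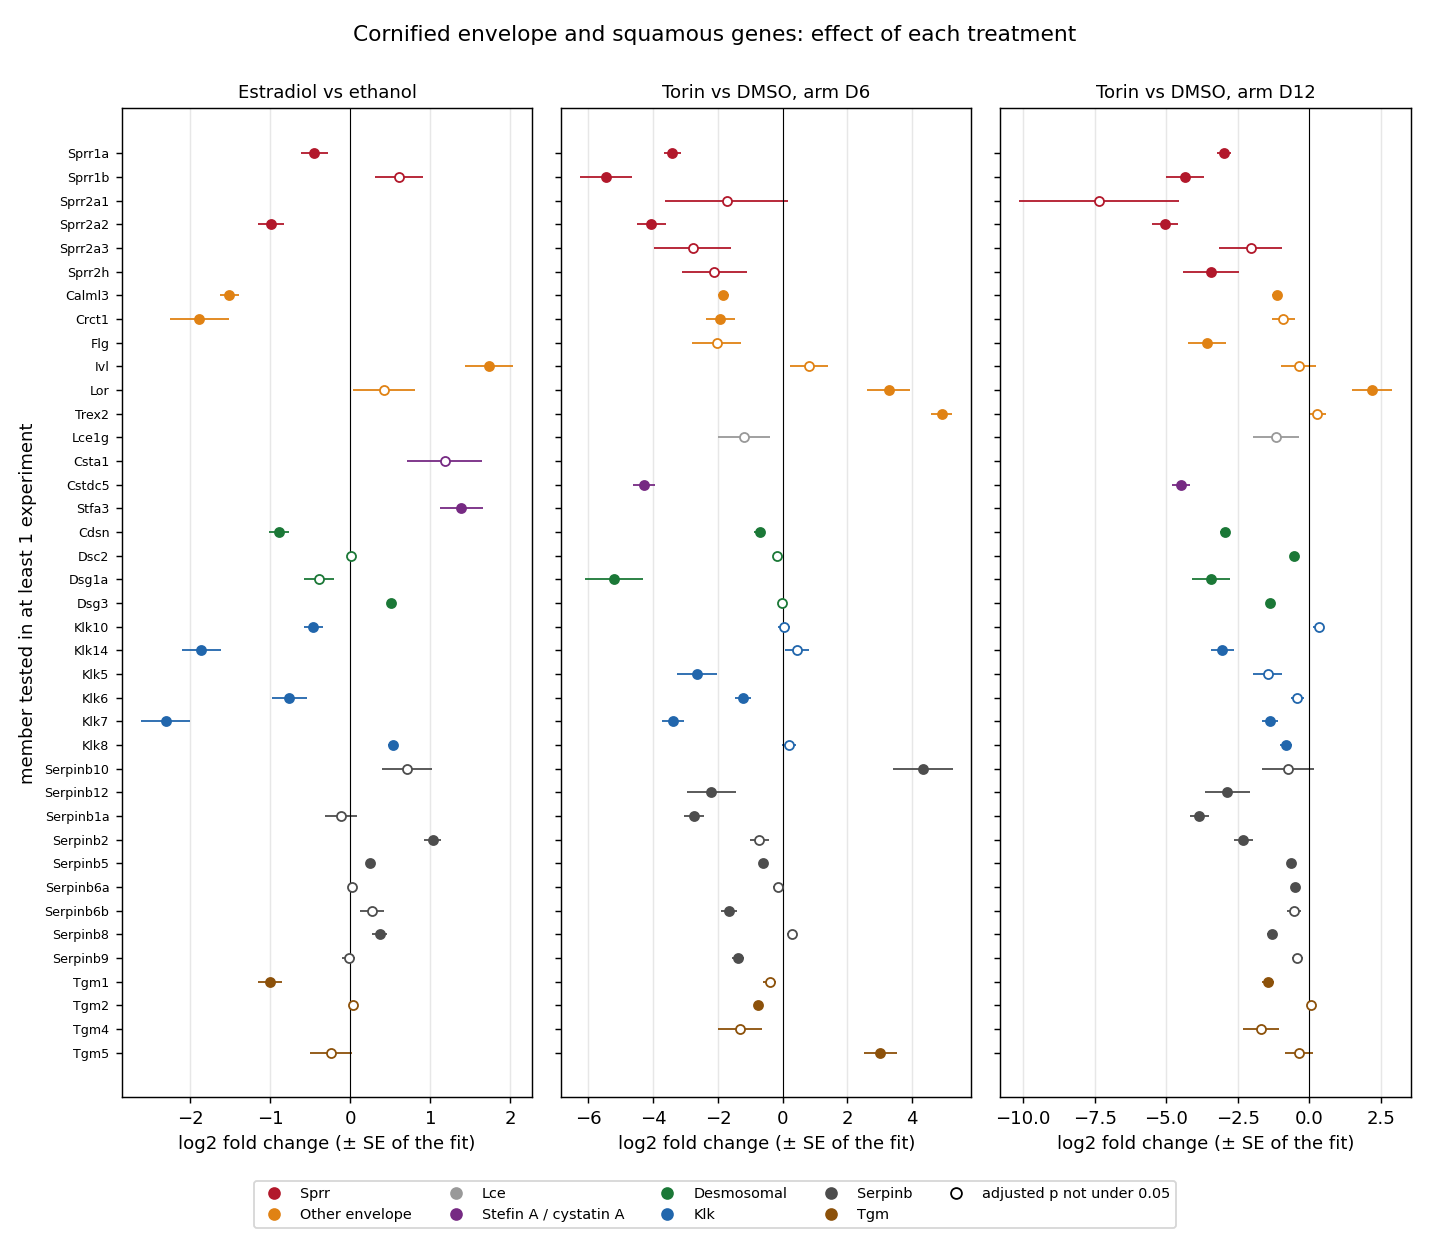
Log2 fold change (horizontal axes, with different ranges) of the 39 members tested in at least 1 experiment, by family, for estradiol against ethanol and for Torin against DMSO in arms D6 and D12. Points are the fitted values, bars the standard error of the fit, and filled points passed the adjusted p of 0.05; filled points lie on both sides of 0 with estradiol and mostly left of it with Torin.

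Among the envelope precursors, 3 of the 6 tested Sprr genes fell in Torin D6, beside 19.3% of all genes, and 4 fell in Torin D12, beside 14.6%. None rose, beside 19.8% and 10.8%. These Sprr genes lie with Ivl, Lor, Flg, Crct1 and the Lce genes in the epidermal differentiation complex of chromosome 3, which holds 42 of the 109 members. The 150 bases upstream of the start of 5 of these genes are shown because the genes are neighbours with different responses, Sprr1a, Sprr1b and Sprr2a2 falling and Lor rising with Torin and Ivl rising with estradiol. The sequences are from RefSeq on GRCm38.p6, given 5′ to 3′ on the strand of the gene, with matches to TGANTCA, the palindromic motif bound by AP-1 factors, in capitals.
Sprr1a: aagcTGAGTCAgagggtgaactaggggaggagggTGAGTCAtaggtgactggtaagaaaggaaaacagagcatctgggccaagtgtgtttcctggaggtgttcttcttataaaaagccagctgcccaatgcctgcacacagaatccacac
Sprr1b: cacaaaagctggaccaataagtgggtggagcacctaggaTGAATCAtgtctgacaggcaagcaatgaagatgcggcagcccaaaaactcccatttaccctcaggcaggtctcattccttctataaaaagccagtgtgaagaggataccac
Sprr2a2: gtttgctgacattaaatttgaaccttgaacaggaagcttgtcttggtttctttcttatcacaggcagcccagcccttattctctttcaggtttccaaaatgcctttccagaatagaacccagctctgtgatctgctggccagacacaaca
Lor: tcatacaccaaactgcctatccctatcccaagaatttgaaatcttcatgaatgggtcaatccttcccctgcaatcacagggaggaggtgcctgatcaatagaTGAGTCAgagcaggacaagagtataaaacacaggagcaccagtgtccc
Ivl: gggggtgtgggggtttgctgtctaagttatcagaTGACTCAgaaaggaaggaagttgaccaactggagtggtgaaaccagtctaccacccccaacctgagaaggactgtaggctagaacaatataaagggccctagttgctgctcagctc
Sprr1a lies on the minus strand (window chr3:92485882-92486031) and has matches that begin 146 and 116 bases upstream of its start. Sprr1b (chr3:92438780-92438929, minus strand) has 1 match at 111 bases, Ivl (chr3:92573736-92573885, minus strand) 1 at 116 bases and Lor (chr3:92083143-92083292, minus strand) 1 at 48 bases upstream. Sprr2a2 (chr3:92250497-92250646, plus strand) has none in this stretch. In RefSeq windows of 250 bases before to 50 after the start, searched on both strands, 22 of 105 windows of 93 members held the motif (21.0%), 13 of 38 windows of 32 tested members did (34.2%), and 2565 of all 32851 windows did (7.81%). The share over all windows covers genes that were not tested too, and a share for all tested genes was not computed. Several windows belong to 1 gene or to near-identical copies. Whether the members differ from other tested genes in this motif was therefore not tested. A match is a description of the letters, and the libraries hold no measurement of binding.

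Sprr1a encodes a small proline-rich protein that is cross-linked into the envelope. It was measured at 23.4, 30.6 and 23.5 CPM in DMSO D6 and 1.93, 2.25 and 3.11 CPM in Torin D6, and at 32.8, 29.8 and 28.9 CPM in DMSO D12 and 3.35, 2.81 and 5.49 CPM in Torin D12. The Torin libraries of both arms lay far below all DMSO libraries. Sprr1a fell in D6 (log2 fold change -3.41 ± 0.26, adjusted p = 1.22e-06) and in D12 (log2 fold change -2.97 ± 0.25, adjusted p = 8.56e-06). With estradiol it was measured at 7.57, 9.45 and 8.79 CPM in ethanol and 8.19, 5.95 and 4.66 CPM in estradiol libraries. The first estradiol library lay within the range of ethanol, and the fall (log2 fold change -0.45 ± 0.17, adjusted p = 0.0482) was lost in 9 of 14 alternatives, among them DESeq2 and the omission of ethanol library 2 or 3 or of estradiol library 2 or 3, with adjusted p from 0.00386 to 0.189.

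Sprr1b, its close relative, was near the detection limit. It had 0.622, 0.85 and 0.722 CPM in DMSO D6 and 0, 0 and 0.038 CPM in Torin D6, and 1.18, 1.2 and 0.883 CPM in DMSO D12 and 0.114, 0 and 0.035 CPM in Torin D12. Only 1 count in all remained in Torin D6 against 55 in DMSO D6, a ratio of 0.0167 with a 95% counting interval of 0.000416 to 0.0971. In D12 the totals were 4 and 90 counts, a ratio of 0.0452 (interval 0.012 to 0.12). No Torin library reached the lowest DMSO library of its arm, and Sprr1b fell in both arms (adjusted p = 0.000253 and 0.000517). With estradiol it did not pass, at 0.736, 1.09 and 0.972 CPM in ethanol and 1.3, 1.75 and 1.22 CPM in estradiol libraries (log2 fold change 0.61 ± 0.3, adjusted p = 0.133), although its estradiol libraries lay above those of ethanol.

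Sprr2a1, Sprr2a2 and Sprr2a3 are near-identical copies, and how reads shared by them were assigned is not stated, so their sum is the safer value. Together they had 9.13, 7.92 and 5.23 CPM in DMSO D6 and 0.475, 0.263 and 0.874 CPM in Torin D6. In D12 the sum was 10.4, 11.6 and 13 CPM with DMSO and 0.266, 0.455 and 0.525 CPM with Torin. Every Torin library lay below every DMSO library, with no test made on the sum. Most of these counts were assigned to Sprr2a2, which fell in D6 (log2 fold change -4.05 ± 0.45, adjusted p = 2.51e-05) and in D12 (log2 fold change -5.03 ± 0.46, adjusted p = 1.67e-05). Sprr2a1 had counts in 1 of 3 DMSO D6 and 2 of 3 DMSO D12 libraries and none in Torin D12. With a floor of 3 counts over the group in place of 0, it was 20.3-fold lower there. The counting interval of its ratio reached up to 0.0623. Sprr2a1 did not pass (adjusted p = 0.0837 in D12), nor did Sprr2a3 in either arm. With estradiol the sum went from 7.35, 7.81 and 7.34 CPM to 3.2, 4.52 and 3.24 CPM, again without overlap, and Sprr2a2 fell (log2 fold change -0.99 ± 0.16, adjusted p = 0.000186). Sprr2h fell in D12 (log2 fold change -3.42 ± 0.98, adjusted p = 0.0232), where it had 1.47, 1.1 and 1.14 CPM in DMSO D12 and 0.266, 0.0379 and 0.035 CPM in Torin D12, but this call was lost in 6 of 16 alternatives, 5 of them omissions of 1 library (any of DMSO D12, or Torin D12 library 2 or 3), with adjusted p from 0.00308 to 0.0913.

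Lor, the gene of loricrin, the main protein of the envelope in the skin, moved the other way at a low level. It had 0.117, 0.313 and 0.217 CPM in DMSO D6 and 1.09, 0.826 and 4.37 CPM in Torin D6, and 0.11, 0.177 and 0.221 CPM in DMSO D12 and 0.57, 0.91 and 0.91 CPM in Torin D12. All Torin libraries lay above all DMSO libraries of their arm, and the third Torin D6 library stood far above the other 2. Lor rose in D6 (log2 fold change 3.27 ± 0.66, adjusted p = 0.0022), by 2.13 ± 0.56 without the third Torin libraries (adjusted p = 0.00672). In D12 the rise (log2 fold change 2.20 ± 0.69, adjusted p = 0.0359) was lost in 6 of 15 alternatives, among them the omission of any DMSO D12 library or of Torin D12 library 2 or 3, with adjusted p from 0.00623 to 0.124. With estradiol its libraries overlapped, at 0.346, 0.588 and 0.68 CPM in ethanol and 0.9, 0.738 and 0.517 CPM in estradiol libraries (log2 fold change 0.42 ± 0.39, adjusted p = 0.434).

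Ivl, which encodes involucrin, the protein laid down first under the membrane, rose with estradiol. It was measured at 0.519, 0.84 and 0.632 CPM in ethanol and 2.79, 1.94 and 1.97 CPM in estradiol libraries, and no estradiol library overlapped with ethanol (log2 fold change 1.74 ± 0.3, adjusted p = 0.000433). The call held in all 14 alternatives. With Torin its libraries overlapped in both arms: it had 0.389, 0.716 and 0.217 CPM in DMSO D6 and 0.407, 1.01 and 0.873 CPM in Torin D6, and 0.626, 0.354 and 0.258 CPM in DMSO D12 and 0.114, 0.341 and 0.49 CPM in Torin D12. Neither change passed (log2 fold change 0.81 ± 0.58 in D6 and -0.37 ± 0.62 in D12).

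Flg, the gene of filaggrin, which bundles keratin filaments, was detected below 1 CPM. It had 0.773, 0.673 and 0.92 CPM in DMSO D12 and 0.0761, 0.0758 and 0.035 CPM in Torin D12, and 0.0778, 0.358 and 0.217 CPM in DMSO D6 and 0.0678, 0 and 0.076 CPM in Torin D6. In D12 it fell, from 65 to 5 counts, a ratio of 0.0782 with a counting interval of 0.0246 to 0.192 (adjusted p = 0.00201). In D6 it had 16 and 4 counts and did not pass (adjusted p = 0.0517). The estradiol table carries no row under this symbol; a row matched by its identifier held 16, 17 and 6 counts in ethanol and 0, 4 and 4 in estradiol libraries and was below the filter.

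Crct1, a short cysteine-rich gene of the same complex, fell with estradiol and in Torin D6. It had 1.3, 1.18 and 0.972 CPM in ethanol and 0.405, 0.277 and 0.235 CPM in estradiol libraries (log2 fold change -1.89 ± 0.37, adjusted p = 0.00119), with no overlap. With Torin and DMSO it had 1.44, 2.68 and 3.14 CPM in DMSO D6 and 0.577, 0.488 and 0.835 CPM in Torin D6, again without overlap (log2 fold change -1.93 ± 0.45, adjusted p = 0.00524). In D12 its groups overlapped, at 4.23, 3.22 and 5.08 CPM in DMSO D12 and 1.9, 1.14 and 3.67 CPM in Torin D12, and it did not pass (adjusted p = 0.133), whereas without the third Torin libraries it fell by 1.44 (adjusted p = 0.00592). The difference between the arms did not pass either (adjusted p = 0.322).

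Calml3, a calmodulin-like protein of stratified epithelia, fell in all 3 treatment comparisons. With estradiol it went from 18.5, 24.2 and 24.7 CPM to 8.23, 8.26 and 7.05 CPM (log2 fold change -1.51 ± 0.12, adjusted p = 1.71e-07). In the Torin experiment it was measured at 16.6, 15 and 14.5 CPM in DMSO D6 and 4.75, 3.98 and 4.25 CPM in Torin D6, and at 12.6, 15.2 and 12.2 CPM in DMSO D12 and 4.72, 6.03 and 7.59 CPM in Torin D12. The groups did not overlap in any of these, and it fell in D6 (log2 fold change -1.83 ± 0.18, adjusted p = 9.29e-06) and in D12 (log2 fold change -1.12 ± 0.17, adjusted p = 0.000603).

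Trex2, a DNA exonuclease of keratinocytes, showed the largest rise of the set. It had 0.311, 0.761 and 0.325 CPM in DMSO D6 and 14.6, 14.2 and 12.8 CPM in Torin D6. The Torin D6 libraries lay close together, well above every other library of the experiment, and it rose there (log2 fold change 4.91 ± 0.32, adjusted p = 4.19e-07). Arm D12 gave 1.14, 1.24 and 1.55 CPM in DMSO D12 and 1.26, 2.05 and 1.5 CPM in Torin D12, with overlap and no call (log2 fold change 0.29 ± 0.29, adjusted p = 0.513). The D12 effect was smaller than the D6 effect by the test of the difference (log2 -4.62 ± 0.42, adjusted p = 4.98e-05). It had 0.389 to 0.72 CPM in the estradiol experiment, where it was below the filter.

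The transglutaminases, which cross-link the precursors, did not move together. Tgm1, the membrane-bound enzyme of keratinocytes whose loss causes ichthyosis, was measured at 9.35, 9.79 and 7.48 CPM in ethanol and 4.09, 3.83 and 5.45 CPM in estradiol libraries, without overlap, and fell (log2 fold change -1.0 ± 0.15, adjusted p = 0.000136). With Torin and DMSO it had 5.91, 7.29 and 7.26 CPM in DMSO D6 and 5.22, 5.11 and 5.16 CPM in Torin D6, and 7.07, 4.18 and 7.36 CPM in DMSO D12 and 2.05, 2.39 and 2.38 CPM in Torin D12. Torin libraries lay below DMSO in both arms, but the change passed in D12 (log2 fold change -1.45 ± 0.21, adjusted p = 0.000455) and not in D6 (log2 fold change -0.40 ± 0.2, adjusted p = 0.145). The difference between the arms passed (adjusted p = 0.043).

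Tgm5, an enzyme of the upper epidermis, rose in D6. It had 0.194, 0.537 and 0.397 CPM in DMSO D6 and 2.71, 3.46 and 3 CPM in Torin D6, with no overlap (log2 fold change 3.02 ± 0.51, adjusted p = 0.000638). The D12 values were 0.957, 0.248 and 1.29 CPM in DMSO D12 and 0.723, 0.455 and 0.735 CPM in Torin D12, with overlap and no call. The arms differed by the test of the difference (log2 -3.39 ± 0.71, adjusted p = 0.0104). Tgm2, the widely expressed tissue transglutaminase, had 126, 134 and 110 CPM in DMSO D6 and 76.7, 67.2 and 73.7 CPM in Torin D6, and it fell in that arm (log2 fold change -0.76 ± 0.099, adjusted p = 8.73e-05). In D12 it had 127, 122 and 116 CPM in DMSO D12 and 126, 115 and 143 CPM in Torin D12 and did not pass (log2 fold change 0.07 ± 0.098, adjusted p = 0.671), and the arms differed (adjusted p = 0.00277). Neither Tgm2 nor Tgm5 passed with estradiol (log2 fold change 0.04 ± 0.055 and -0.24 ± 0.26). Tgm4, Tgm3, Tgm6 and Tgm7 stayed below 1 CPM in every library.

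Of genes of cell adhesion in squamous layers, 2 of the 4 tested fell in Torin D6, beside 19.3% of all genes, and 4 of 4 in D12, beside 14.6%. Cdsn encodes corneodesmosin, the protein that marks corneodesmosomes. It was measured at 22, 27.5 and 21.9 CPM in DMSO D6 and 16, 15.8 and 12 CPM in Torin D6, and at 49.4, 41.6 and 53.6 CPM in DMSO D12 and 6.54, 7.13 and 5 CPM in Torin D12. Cdsn fell in D6 (log2 fold change -0.71 ± 0.17, adjusted p = 0.00524) and further in D12 (log2 fold change -2.95 ± 0.18, adjusted p = 1.01e-06), with no overlap in either arm, and the arms differed (log2 -2.25 ± 0.24, adjusted p = 0.000128). Its DMSO libraries differed as well, those of D12 all lying above those of D6, which the test across all genes did not call (adjusted p = 0.475). With estradiol it had 28.3, 22.7 and 18.3 CPM in ethanol and 13.6, 12 and 11.8 CPM in estradiol libraries and fell (log2 fold change -0.89 ± 0.13, adjusted p = 7.92e-05).

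Dsg3, the desmoglein of the lower layers of stratified epithelia, behaved differently in each comparison. It was measured at 142, 151 and 142 CPM in ethanol and 223, 202 and 196 CPM in estradiol libraries, without overlap, and rose (log2 fold change 0.51 ± 0.051, adjusted p = 2.74e-06). In D6 the Torin and DMSO libraries overlapped, at 46.5, 47 and 42.6 CPM in DMSO D6 and 46.3, 42.8 and 45.9 CPM in Torin D6 (log2 fold change -0.01 ± 0.12, adjusted p = 0.955). In D12 every Torin library lay below every DMSO library, at 63.6, 52.6 and 65.8 CPM in DMSO D12 and 27.5, 20.3 and 22.1 CPM in Torin D12, and Dsg3 fell (log2 fold change -1.38 ± 0.12, adjusted p = 1.14e-05). The Torin effects of the arms differed (log2 -1.37 ± 0.17, adjusted p = 0.000347).

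Dsg1a, a desmoglein of the upper layers and a target of kallikreins, fell to a few counts in Torin D6. It had 0.389, 2.1 and 2.06 CPM in DMSO D6 and 0, 0.113 and 0 CPM in Torin D6, which are 3 counts against 114 in all, a ratio of 0.0242 with a counting interval of 0.00492 to 0.0725 (adjusted p = 0.000768). The fitted log2 fold change of -5.20 was -8.35 without Torin D6 library 2, which held the 3 counts and without which the value depends on the prior count, and the call held in all 16 alternatives. Arm D12 gave 2.58, 3.29 and 3.39 CPM in DMSO D12 and 0.304, 0.417 and 0.14 CPM in Torin D12, and Dsg1a fell there too (log2 fold change -3.42 ± 0.66, adjusted p = 0.00282). Neither arm showed overlap. With estradiol it had 3.25, 3.4 and 3.06 CPM in ethanol and 2.74, 2.4 and 2.26 CPM in estradiol libraries, all 3 below ethanol, but did not pass (log2 fold change -0.39 ± 0.19, adjusted p = 0.121). Dsc2, a desmocollin of simple and stratified epithelia, changed less: it had 60.9, 59.1 and 60.1 CPM in DMSO D12 and 44.1, 38.1 and 42.7 CPM in Torin D12 and fell (log2 fold change -0.53 ± 0.071, adjusted p = 0.000254). In D6 it had 54.6, 55.7 and 53.5 CPM in DMSO D6 and 47.1, 46.8 and 50.1 CPM in Torin D6 and did not pass (log2 fold change -0.18 ± 0.071, adjusted p = 0.0587), although it fell there by 0.23 without the third Torin libraries (adjusted p = 0.0275). With estradiol its libraries overlapped, at 72.5, 75.5 and 67.9 CPM in ethanol and 75.1, 71.2 and 70.6 CPM in estradiol libraries.

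The kallikreins, secreted serine proteases encoded side by side on chromosome 7, held the largest fall with estradiol. Klk7, the chymotrypsin-like enzyme that cuts corneodesmosin, was measured at 2.42, 2.31 and 1.7 CPM in ethanol and 0.45, 0.461 and 0.376 CPM in estradiol libraries, without overlap, and fell (log2 fold change -2.31 ± 0.31, adjusted p = 4.55e-05). In the Torin experiment it had 4.2, 8.59 and 8.77 CPM in DMSO D6 and 0.509, 0.864 and 0.684 CPM in Torin D6, and 17.5, 13.2 and 13 CPM in DMSO D12 and 4.37, 5.38 and 7.07 CPM in Torin D12. It fell in D6 (log2 fold change -3.39 ± 0.34, adjusted p = 1.1e-05) and less in D12 (log2 fold change -1.37 ± 0.28, adjusted p = 0.00413), and the difference passed (log2 2.01 ± 0.43, adjusted p = 0.0119). No Torin library overlapped with DMSO of its arm.

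Klk14, a trypsin-like protease of the same pathway, fell with estradiol and in Torin D12. With estradiol it had 3.03, 3.36 and 3.01 CPM in ethanol and 0.765, 0.738 and 1.08 CPM in estradiol libraries (log2 fold change -1.86 ± 0.25, adjusted p = 3.85e-05). In D6 it had 0.739, 2.51 and 1.3 CPM in DMSO D6 and 2.2, 1.99 and 1.9 CPM in Torin D6, with overlap and no call (log2 fold change 0.43 ± 0.37, adjusted p = 0.38). The D12 values were 3.35, 2.83 and 3.09 CPM in DMSO D12 and 0.494, 0.379 and 0.245 CPM in Torin D12, without overlap (log2 fold change -3.04 ± 0.41, adjusted p = 0.000261). The arms differed (log2 -3.48 ± 0.55, adjusted p = 0.00197). Klk5, the trypsin-like enzyme that can activate both, was tested in the Torin experiment alone and fell in D6 (log2 fold change -2.64 ± 0.62, adjusted p = 0.00526; lost with limma on the deposited signal, adjusted p = 0.0764), where it had 0.467, 1.3 and 0.614 CPM in DMSO D6 and 0.0339, 0.15 and 0.19 CPM in Torin D6. In D12 it had 1.66, 1.27 and 1.44 CPM in DMSO D12 and 0.304, 0.872 and 0.42 CPM in Torin D12 and did not pass (adjusted p = 0.0547).

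Klk8, also called neuropsin, rose with estradiol, from 19.9, 21.8 and 21.6 CPM to 30.9, 29.5 and 30.9 CPM (log2 fold change 0.53 ± 0.063, adjusted p = 1.36e-05). Its 2 flanking neighbours in the cluster that were tested changed the other way, Klk7 as above and Klk10 from 11.9, 16.1 and 16.2 CPM to 11.5, 11.3 and 9.26 CPM (log2 fold change -0.46 ± 0.12, adjusted p = 0.00923). In D12 Klk8 had 11.9, 15.2 and 16.9 CPM in DMSO D12 and 8.33, 6.52 and 10.3 CPM in Torin D12 and fell (log2 fold change -0.81 ± 0.21, adjusted p = 0.0137), a call lost in 4 of 16 alternatives, among them the omission of DMSO D12 library 3 or of Torin D12 library 2 (adjusted p from 0.00158 to 0.0603). In D6 its groups overlapped, at 13.5, 11 and 8.48 CPM in DMSO D6 and 12.2, 11.5 and 14.1 CPM in Torin D6. Klk6 fell with estradiol (log2 fold change -0.76 ± 0.22, adjusted p = 0.0149), where it had 3.38, 4.37 and 2.92 CPM in ethanol and 2.56, 1.94 and 1.79 CPM in estradiol libraries, and this call was lost in 5 of 14 alternatives, among them the omission of ethanol library 2 or of estradiol library 2 or 3 (adjusted p from 0.00543 to 0.0991). In D6 it had 2.45, 2.91 and 3.39 CPM in DMSO D6 and 1.39, 0.901 and 1.44 CPM in Torin D6 and fell too (log2 fold change -1.22 ± 0.24, adjusted p = 0.00167), while in D12 it did not pass (adjusted p = 0.204). Klk10 was within the range of DMSO in D6 and did not pass in D12 (log2 fold change 0.33 ± 0.18, adjusted p = 0.207), but rose there without the third Torin libraries (log2 fold change 0.47 ± 0.16, adjusted p = 0.0397). Of the 5 kallikreins tested with estradiol, 4 fell, beside 16.6% of all genes, and 1 rose, beside 17.4%. Of the 6 tested with Torin, 3 fell in each arm, beside 19.3% in D6 and 14.6% in D12. None rose with all libraries, beside 19.8% and 10.8%.

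**Figure D2:**
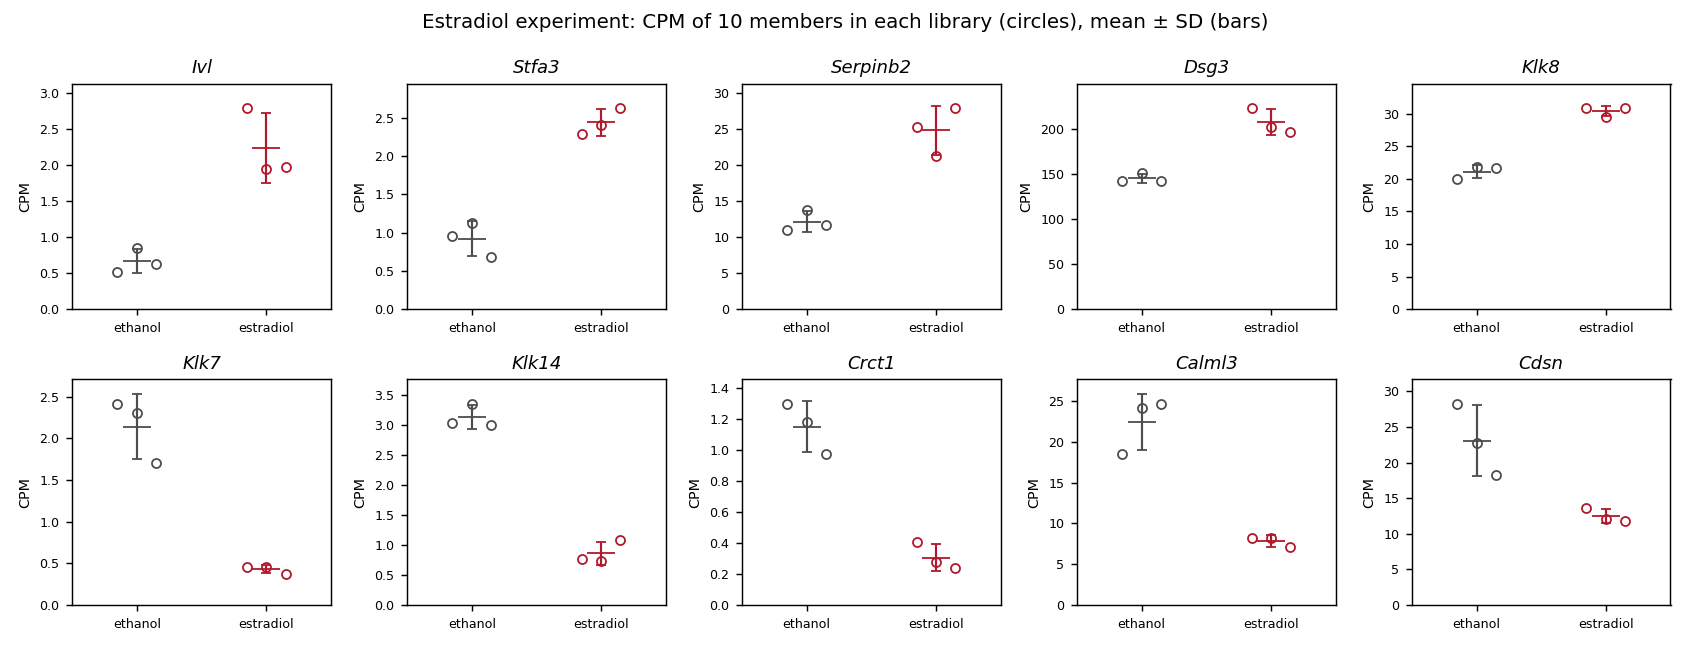
CPM (vertical axes from 0, a different range in each panel) of 10 members in the 3 ethanol and 3 estradiol libraries; circles are libraries, horizontal marks with bars the mean ± SD. The upper row holds members that rose and the lower row members that fell, and in none of the 10 do the groups overlap.

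The stefin A and cystatin-like genes gave one of the steepest falls and a gene seen in treated organoids alone. Cstdc5, a stefin-like gene, had 20, 33.7 and 22.9 CPM in DMSO D6 and 1.46, 0.676 and 1.78 CPM in Torin D6, and 50.4, 47.7 and 47 CPM in DMSO D12 and 2.02, 1.44 and 3.01 CPM in Torin D12. It fell in D6 (log2 fold change -4.28 ± 0.34, adjusted p = 1.94e-06) and in D12 (log2 fold change -4.48 ± 0.33, adjusted p = 4.22e-06), with Torin libraries far below all DMSO libraries. The estradiol table has this gene under an older symbol, BC100530, a match made by identifier after the members were counted. There it had 10.7, 10.5 and 8.84 CPM with ethanol and 5.35, 4.89 and 4.94 CPM with estradiol, and fell (log2 fold change -0.99 ± 0.12, adjusted p = 1.43e-05). Stfa3, stefin A3, rose with estradiol, at 0.952, 1.13 and 0.68 CPM in ethanol and 2.29, 2.4 and 2.63 CPM in estradiol libraries, without overlap (log2 fold change 1.39 ± 0.27, adjusted p = 0.00101), and was below the filter with Torin. Csta1 had 0.26, 0.714 and 0.194 CPM in ethanol and 0.585, 1.02 and 1.13 CPM in estradiol libraries, with overlap, and did not pass (log2 fold change 1.18 ± 0.47, adjusted p = 0.0652).

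Cstdc2, a cystatin-like gene singled out after its counts were seen, had no count in any of the 6 DMSO libraries. It had 1, 3 and 2 counts in Torin D6 and 9, 2 and 12 counts in Torin D12. In the estradiol experiment, under the symbol 9230104L09Rik, it had no count in ethanol and 12, 7 and 14 counts in estradiol libraries. All 9 treated libraries thus held it and none of the 9 vehicle libraries did. Against a floor of 3 counts over the vehicle group it was 11.4-fold higher with estradiol and 7.79-fold higher in Torin D12. In Torin D6, with 6 counts, it was 1.84-fold higher. These folds leave out the counting error of the treated libraries, so they are not lower bounds. The counting interval of the ratio began at 5.84 in Torin D12 and at 1.08 in Torin D6, and is not given for estradiol. Cstdc2 was below the filter and has no test. Stfa1, another stefin A gene, had 5, 2 and 11 counts in DMSO D6 and none in Torin D6, and 9, 14 and 5 counts in DMSO D12 against 0, 3 and 3 in Torin D12. It passed the filter without the third Torin libraries alone, and fell there in D6 (adjusted p = 0.0187).

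The Serpinb genes encode intracellular serine protease inhibitors. Serpinb5, maspin, a gene of basal mammary cells, was measured at 363, 396 and 350 CPM in DMSO D6 and 236, 217 and 271 CPM in Torin D6, and at 421, 432 and 396 CPM in DMSO D12 and 257, 241 and 304 CPM in Torin D12. It fell in both arms (log2 fold change -0.61 ± 0.10 in D6, adjusted p = 0.000603, and -0.64 ± 0.10 in D12, adjusted p = 0.000843), without overlap, and the difference between arms was -0.02 ± 0.15. With estradiol it had 260, 282 and 275 CPM in ethanol and 332, 315 and 324 CPM in estradiol libraries and rose (log2 fold change 0.25 ± 0.043, adjusted p = 0.000386).

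Serpinb2, the plasminogen activator inhibitor of type 2, rose with estradiol at 10.9, 13.7 and 11.7 CPM in ethanol and 25.3, 21.2 and 27.9 CPM in estradiol libraries, without overlap (log2 fold change 1.03 ± 0.11, adjusted p = 3.94e-06). Arm D12 gave 21.4, 20 and 26.7 CPM in DMSO D12 and 3.84, 3.18 and 6.75 CPM in Torin D12, and Serpinb2 fell there (log2 fold change -2.30 ± 0.33, adjusted p = 0.000355). In D6 it had 50.2, 22.9 and 25.1 CPM in DMSO D6 and 21, 18.3 and 20.2 CPM in Torin D6. The first DMSO D6 library stood far above the other 2, and the change did not pass (log2 fold change -0.72 ± 0.3, adjusted p = 0.081), although without the third Torin libraries it fell there by 0.75 (adjusted p = 0.0344). Serpinb8 shared the rise with estradiol and the fall in D12. With estradiol it had 9.3, 9.66 and 10.7 CPM in ethanol and 13.6, 12.2 and 12.4 CPM in estradiol libraries and rose (log2 fold change 0.37 ± 0.094, adjusted p = 0.0076), a call lost in 2 of 14 alternatives, among them limma on the deposited signal. The D12 values were 11.1, 10.3 and 10.4 CPM in DMSO D12 and 3.61, 4.47 and 4.86 CPM in Torin D12, without overlap, and Serpinb8 fell there (log2 fold change -1.30 ± 0.16, adjusted p = 0.000123). In D6 its groups overlapped, at 10.5, 9.04 and 7.65 CPM in DMSO D6 and 11.6, 11.7 and 10.1 CPM in Torin D6 (log2 fold change 0.29 ± 0.15, adjusted p = 0.156). For both genes the Torin effects of the arms differed (log2 -1.58 ± 0.44 for Serpinb2, adjusted p = 0.0413, and -1.59 ± 0.22 for Serpinb8, adjusted p = 0.0008).

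Serpinb1a, the leukocyte elastase inhibitor, fell in both arms and not with estradiol. It had 3.46, 6.67 and 4.51 CPM in DMSO D6 and 0.916, 0.526 and 0.722 CPM in Torin D6, and 6.52, 5.91 and 5.81 CPM in DMSO D12 and 0.266, 0.455 and 0.525 CPM in Torin D12. No Torin library overlapped with DMSO (log2 fold change -2.74 ± 0.31, adjusted p = 2.77e-05 in D6, and log2 fold change -3.85 ± 0.33, adjusted p = 9.47e-06 in D12). With estradiol it overlapped, at 2.51, 3.45 and 3.5 CPM in ethanol and 2.52, 2.91 and 3.24 CPM in estradiol libraries (log2 fold change -0.12 ± 0.2, adjusted p = 0.673). Serpinb1b, its close copy, had 53 counts in the Torin experiment and was not tested, and reads shared by these copies may be split between them.

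Serpinb10, also called bomapin, rose in D6 from 6 to 143 counts in all, a ratio of 21.9 with a counting interval of 9.82 to 60.7 (adjusted p = 0.00293). It had 0, 0.268 and 0 CPM in DMSO D6 and 1.93, 1.73 and 1.52 CPM in Torin D6, and 2 of the 3 DMSO D6 libraries held no count. Its fitted log2 fold change of 4.33 was 8.56 without DMSO D6 library 2, which held all 6 counts, a value that then depends on the fit's prior count, and the call held in all 16 alternatives. In D12 it had 0.0736, 0.319 and 0.405 CPM in DMSO D12 and 0.038, 0.152 and 0.28 CPM in Torin D12, with overlap (log2 fold change -0.73 ± 0.91, adjusted p = 0.624), and the arms differed (log2 -5.06 ± 1.3, adjusted p = 0.0304). With estradiol its groups overlapped, at 1.38, 0.714 and 0.875 CPM in ethanol and 1.57, 1.38 and 1.93 CPM in estradiol libraries (log2 fold change 0.71 ± 0.31, adjusted p = 0.0924).

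The other Serpinb genes were lower with Torin or did not pass. Serpinb9, an inhibitor of granzyme B, had 23.4, 19.5 and 20.4 CPM in DMSO D6 and 6.34, 7.51 and 10.5 CPM in Torin D6 and fell (log2 fold change -1.38 ± 0.19, adjusted p = 0.000157). Arm D12 gave 22.7, 20.1 and 17.8 CPM in DMSO D12 and 12.5, 15.5 and 17.7 CPM in Torin D12, a change that did not pass (adjusted p = 0.142) but did without the third Torin libraries, where it fell by 0.51 (adjusted p = 0.0122), and the difference between arms passed (log2 0.97 ± 0.27, adjusted p = 0.0392). Serpinb6b fell in D6 (log2 fold change -1.65 ± 0.25, adjusted p = 0.000256), and Serpinb6a fell in D12 (log2 fold change -0.51 ± 0.14, adjusted p = 0.0188), and also in D6, by 0.30, without the third Torin libraries (adjusted p = 0.00715). Serpinb12 fell in both arms from a low level, with 30 and 7 counts in D6 and 39 and 5 in D12. The D6 call of Serpinb12 (adjusted p = 0.0391) was lost without the third Torin libraries (adjusted p = 0.0785). None of Serpinb6a, Serpinb6b and Serpinb9 passed with estradiol, where Serpinb12 was not tested. Of 9 tested members of the family, 5 fell in D6, beside 19.3% of all genes, and 1 rose, beside 19.8%. In D12, 6 fell, beside 14.6%, and none rose, beside 10.8%. With estradiol 3 of 8 rose, beside 17.4%, and none fell, beside 16.6%.

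**Figure D3:**
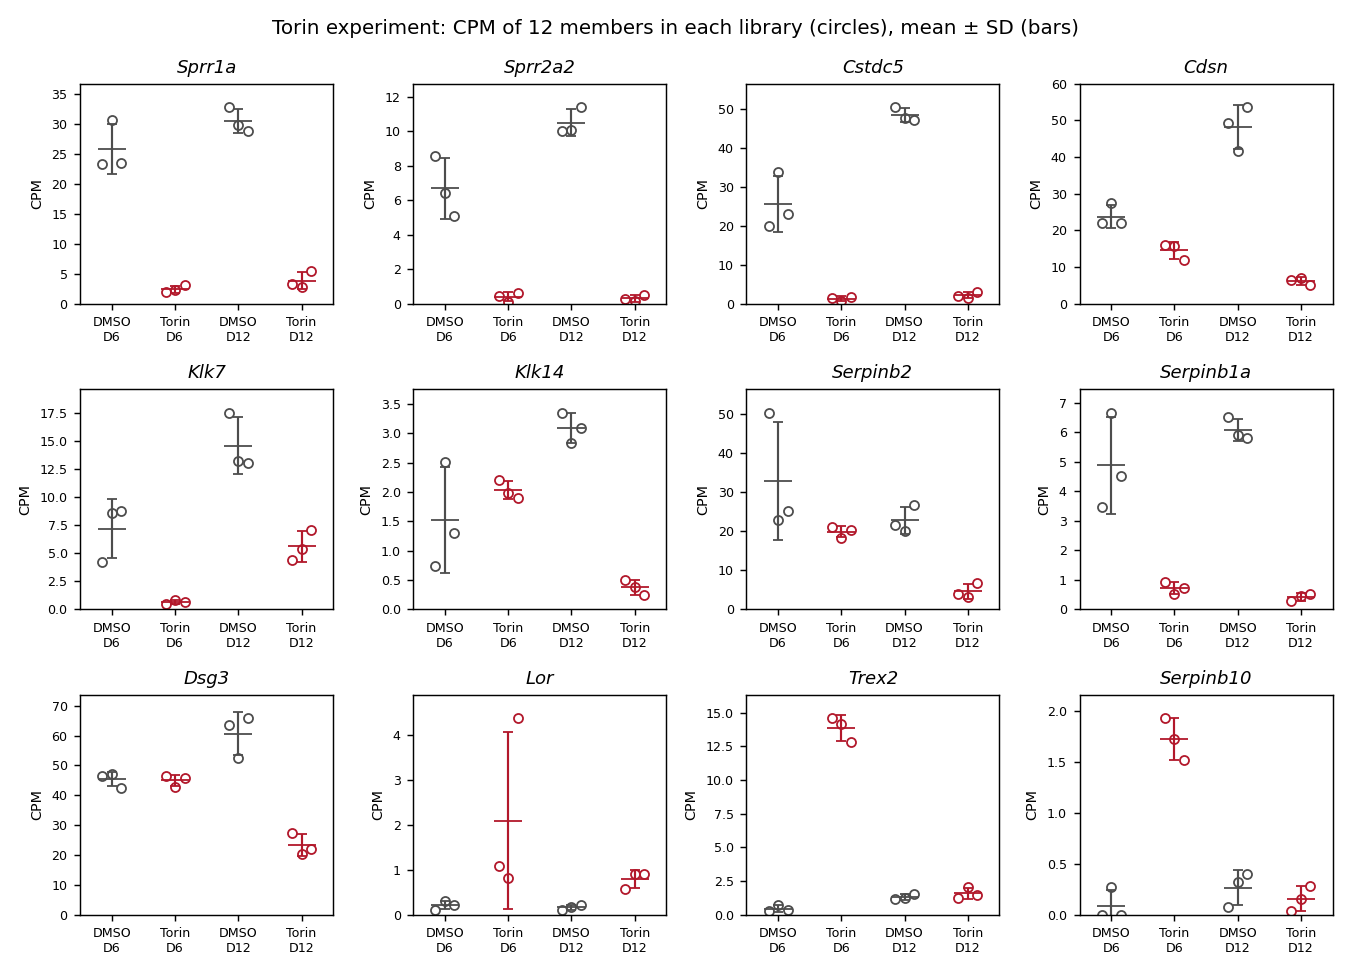
CPM (vertical axes from 0, a different range in each panel) of 12 members in the 12 libraries of the Torin experiment; circles are libraries, horizontal marks with bars the mean ± SD of 3. Sprr1a, Sprr2a2, Cstdc5 and Serpinb1a are low with Torin in both arms, Klk14, Serpinb2 and Dsg3 passed as lower in D12 and not in D6 (Serpinb2 also in D6 without the third Torin libraries), and Trex2 and Serpinb10 are high in Torin D6.

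The arms were compared directly by the difference of their Torin effects, D12 minus D6. Of 37 members 3 passed with a positive difference, beside 5.03% of all genes, and 10 with a negative one, beside 5.55%. A negative difference means that the D12 effect was lower. It took 2 forms: Trex2, Tgm5 and Serpinb10 rose in D6 and had no call in D12, whereas Cdsn fell further in D12 and Klk14, Dsg3, Serpinb2, Serpinb8, Tgm1 and Klk8 fell in D12 without a call in D6. Klk7, Serpinb9 and Tgm2 had the larger fall in D6. None of the 6 Sprr genes tested passed. Without the third Torin libraries 4 were positive, beside 9.5% of all genes, and 11 negative, beside 8.37%, all 13 among them. Of the 11 differences followed one by one through 21 alternatives, those of Cdsn, Dsg3, Klk14, Serpinb8 and Trex2 passed in each, and those of Klk7 and Tgm5 in all but that with the threshold of 0.01. The other 4 were lost at the threshold of 0.01 and depended on single libraries of the 12. With all libraries kept, Tgm1 was also lost with no low-count filter, with the replicate block and with limma on the deposited signal. Klk8 was also lost with RLE scaling and with the replicate block. Klk8 passed in 3 of the 12 omissions of 1 library (DMSO D6 library 1, DMSO D12 library 1 or Torin D12 library 3; adjusted p over all alternatives 0.0129 to 0.122), and Serpinb2 in 3 (DMSO D6 library 1, Torin D6 library 3 or Torin D12 library 3; 0.00375 to 0.106). Tgm1 passed in 2 (Torin D6 library 3 or DMSO D12 library 2; 0.00642 to 0.157). Serpinb10 passed in 5 (DMSO D6 library 2, Torin D6 library 2 or 3, DMSO D12 library 1 or Torin D12 library 3; 0.00166 to 0.0939).

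**Figure D4:**
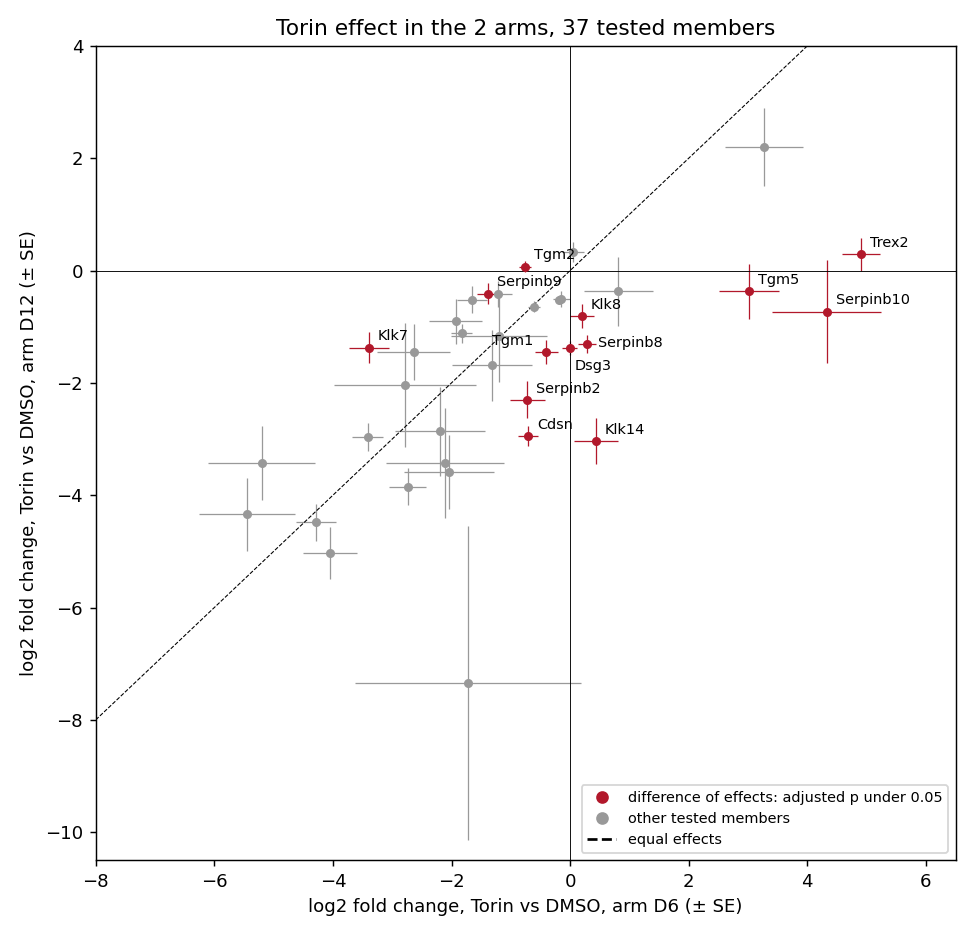
Log2 fold change of the 37 tested members, Torin against DMSO, in arm D6 (horizontal) and arm D12 (vertical), with bars for the standard error of the fit and a dashed line of equal effects. The 13 named red points differed between the arms; Trex2, Serpinb10 and Tgm5 lie at the right near 0 on the D12 axis.

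The DMSO controls of the arms were compared in the same fit. None of the 37 members passed as higher in DMSO D12, beside 0% of all genes, and none as lower, beside 0.00552%. At an unadjusted p under 0.05, edgeR gave 8 higher (Cdsn, Cstdc5, Dsg3, Flg, Klk10, Klk14, Klk7 and Trex2) and 0 lower, beside 2.09% and 1.95% of all genes. In all, 27 of 37 log2 fold changes were positive, with a median of 0.42 beside 0.011 for all genes. DESeq2 called 2 members higher, beside 0.0302% of all genes higher and 0.0259% lower, and the fit of these 2 groups alone called 2, beside 0.0477% in each direction. Cdsn had 22, 27.5 and 21.9 CPM in DMSO D6 and 49.4, 41.6 and 53.6 CPM in DMSO D12, and passed without the third Torin libraries (log2 1.01 ± 0.11, adjusted p = 0.00187), where 0.0324% of all genes were called higher and 0.0432% lower.

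The treatments can be set side by side, since they share no control library. All 10 members that fell with estradiol were tested with Torin, and 7 of the 10 fell in D6 and 7 in D12, which is 7 of 17 and 7 of 21 of the members that fell there. Of the 2214 genes that fell with estradiol among all 13016 tested in both experiments and matched by symbol, 50.7% fell in D6 and 40% in D12, so that the members' counts are read beside these shares. Of all matched genes that fell in D6, 38.5% also fell with estradiol, and of those that fell in D12, 38.5% did. The 17 and 21 members include some that were not tested with estradiol, whereas these shares cover genes tested in both experiments. Calml3, Cdsn, Klk7, Sprr1a and Sprr2a2 fell in all 3 comparisons, for which no share of all genes was computed. Of the 7 that rose with estradiol 6 were tested with Torin: 1 of them, Serpinb5, fell in D6, 5 fell in D12 (Serpinb5, Serpinb2, Serpinb8, Dsg3 and Klk8), and none rose in either arm. Of the 2473 matched genes that rose with estradiol, 11.2% fell and 55.1% rose in D6, and 10.4% fell and 29.8% rose in D12. The experiments differ in mouse age and culture time, and the difference between estradiol and Torin effects was not tested.

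Genes of the same pathway that are not members were counted in 4 lists, to be read beside the shares of all genes given above (17.4% rose and 16.6% fell with estradiol, 19.8% and 19.3% in D6, and 10.8% and 14.6% in D12). Of transcriptional and signalling regulators of epidermal differentiation, 7 of 32 tested rose and 9 fell with estradiol, 9 of 31 rose and 6 fell in Torin D6, and 2 rose and 11 fell in D12. Klf4, a factor of the skin barrier, rose with estradiol (log2 fold change 1.53 ± 0.069, adjusted p = 5.42e-10) and in D6 (2.47 ± 0.34, adjusted p = 0.000146), and Grhl3, which is needed for the barrier, rose in D6 (2.02 ± 0.35, adjusted p = 0.000718). Cebpb rose in D6 as well (adjusted p = 0.0159), but its Torin D6 libraries ran from 10.5 to 1640 CPM beside 11 to 14.5 CPM in DMSO. Pou2f3 fell with estradiol (-2.47 ± 0.23, adjusted p = 1.11e-06). In D12 Zfp750, a factor of late epidermal differentiation, fell (-1.03 ± 0.17, adjusted p = 0.000941) and Trp63, the master factor of stratified epithelia, rose (0.45 ± 0.12, adjusted p = 0.0151).

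Of desmosome and envelope scaffold genes, 3 of 19 tested rose and 7 fell with estradiol, 4 of 20 rose and 7 fell in D6, and none rose and 11 fell in D12. Dmkn and Krtdap, which encode secreted proteins of differentiating keratinocytes, fell in D6 (-2.89 ± 0.15, adjusted p = 5.99e-08, and -2.45 ± 0.36, adjusted p = 0.000251) and in D12 (-2.11 ± 0.14, adjusted p = 2.19e-06, and -3.24 ± 0.37, adjusted p = 8.67e-05). Of genes of the lipid envelope and its proteases, 1 of 16 rose and 6 fell with estradiol, and of 18, 1 rose and 6 fell in D6 and 1 rose and 10 fell in D12. Spink5, the inhibitor that holds Klk5 and Klk7 in check, fell with estradiol (-1.06 ± 0.085, adjusted p = 2.71e-07), in D6 (-5.37 ± 0.25, adjusted p = 3.07e-08; mean 39.1 CPM with DMSO and 0.944 CPM with Torin) and in D12 (-3.09 ± 0.21, adjusted p = 2.74e-06). Of the S100 family, calcium-binding proteins that lie in part in the same complex, 2 of 11 rose and 1 fell with estradiol, and of 13, 3 rose and 5 fell in D6 and none rose and 4 fell in D12.

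Lists of cell type markers were summed and counted as well, their calls to be read beside the same shares of all genes. A list of 20 keratins and other genes of squamous and skin epithelium, none of them members and 7 of them also in the lists above, summed to 489 to 602 CPM in ethanol and 865 to 963 CPM in estradiol libraries, where 6 of 13 tested rose and 3 fell. In the Torin experiment it summed to 144 to 218 CPM in DMSO D6 and 112 to 141 CPM in Torin D6, and to 283 to 357 CPM in DMSO D12 and 84.8 to 122 CPM in Torin D12. The sums follow its abundant genes: of 14 tested 4 rose and 4 fell in D6 (median log2 fold change 0.10) and 2 rose and 7 fell in D12 (median -0.65). The 18 basal markers, all detected in every group, summed to 4930 to 5420 CPM in DMSO D6 against 3390 to 3920 CPM in Torin D6, and to 5900 to 6030 CPM in DMSO D12 against 4160 to 4790 CPM in Torin D12. Of these 18, 4 rose and 6 fell in D6 (median log2 fold change -0.19), and 3 rose and 6 fell in D12 (median -0.03). Krt5 fell in both arms (-3.19 ± 0.11, adjusted p = 5e-09, and -1.13 ± 0.10, adjusted p = 1.52e-05), whereas Oxtr rose in both (0.46, adjusted p = 0.00736, and 1.41, adjusted p = 8.15e-06). The sum of the 18 luminal markers was higher in Torin D6 (10600 to 12100 CPM) than in DMSO D6 (7560 to 8900 CPM) and lower in Torin D12 (6810 to 8000 CPM) than in DMSO D12 (9020 to 9420 CPM). By gene, 7 of them rose and 7 fell in D6 (median log2 fold change 0.10), and none rose and 9 fell in D12 (median -0.35). Of the 16 fibroblast markers 13 fell and 1 rose in D6, and 3 fell and 3 rose in D12. With estradiol 8 fibroblast markers rose and 3 fell. There 4 basal markers rose and 8 fell, and 7 luminal markers rose and 6 fell. The part of these shifts in the members' results was not tested. Of 20 neutrophil and myeloid markers, which matter for stefins and serpins of blood cells, Adgre1, Ly6g, Ngp, Retnlg and Tyrobp were at 0 in all groups of the Torin experiment; the list summed to 124 to 196 CPM in Torin D6 against 39.1 to 44.1 CPM in DMSO D6, to 15.9 to 25 CPM in Torin D12 against 46.5 to 54.2 CPM in DMSO D12, and to 69.3 to 81.6 CPM with estradiol against 160 to 211 CPM with ethanol, and it holds Ltf and S100a8, which epithelium also expresses. Of the 8 neutrophil and myeloid markers tested with Torin, 4 rose and 3 fell in D6 (median log2 fold change 0.58). In D12 none of them rose and 3 fell (median -0.15). Of 6 tested with estradiol, 1 rose and 3 fell (median -0.52). Lists of lymphocyte markers (9.87 to 27 CPM over all libraries) and of endothelial and adipocyte markers (11.8 to 23.6 CPM) were low. Of 16 mast cell and basophil markers (145 to 432 CPM in sum, most of it Kit, which luminal cells also express) 4 were tested with Torin, of which 3 rose and 1 fell in D6 (median log2 fold change 5.02) and 2 rose in D12 (median 1.5). Those that rose were Mcpt8 (mean 1.14 CPM in DMSO D6 and 56.4 CPM in Torin D6, adjusted p = 1.99e-06), Gzme (0.263 and 15.8 CPM, adjusted p = 2.14e-07) and Gzmc (0.0539 and 1.23 CPM, adjusted p = 0.000866), the first 2 also in D12 (1.14 and 3.45 CPM, adjusted p = 0.0158, and 0.159 and 2.17 CPM, adjusted p = 2.75e-05). Of the defining markers of mast cells, Cma1, Cpa3, Fcer1a, Ms4a2, Tpsab1 and Tpsb2 had no count in Torin D6 or DMSO D6. In D12, Fcer1a and Ms4a2 had none in either group, and Cma1 had counts in both. Cpa3, Tpsab1 and Tpsb2 had counts in DMSO D12 but none in Torin D12. In the estradiol experiment Fcer1a and Tpsab1 had none, and Cma1 had counts in both groups. There Ms4a2 had counts with ethanol alone, and Cpa3 and Tpsb2 with estradiol alone. With estradiol, of 2 tested, Kit fell.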

How the data were processed

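The submitters' processing notes list Trim Galore, cutadapt, FastQC and MultiQC, then kallisto and DESeq2 with the mouse build GRCm39, and give no versions. The counts of the Torin experiment are whole numbers per gene symbol, as the authors deposited them. Those of the estradiol experiment are estimated counts as deposited by the authors, 32.2% of them not whole, and were rounded. The authors deposited normalized values too, a signal that divides counts by factors differing between genes and libraries, used in 1 alternative alone. How reads shared by near-identical genes were assigned is not given in the sources used here. The series text names more Torin samples than the 12 used, and any others were not analysed here.

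Fits were made for each experiment on its own with edgeR 4.0.16 in R 4.3.3 (filterByExpr, TMM scaling, group means, quasi-likelihood test). They covered 15358 and 18112 genes, with Benjamini-Hochberg adjustment over all of them and 0.05 as the threshold, and were tested on simulated data. Groups came from the labels. Replicate numbers did not pair the libraries: same-numbered libraries correlated between -0.06 and -0.02 in the estradiol experiment and between -0.24 and 0.12 in the other. Estradiol features were matched by the symbols in the deposited table; 10 members had no symbol there, and 5 of these were found by identifier and left out of all counts. Where a group held few counts, the ratio of summed counts is given with an exact 95% interval, which covers counting error only. The members and the gene lists were chosen with earlier results of these data known. Members were given library by library if they passed in a treatment comparison with a mean of at least 1 CPM in a group, at most 10 per direction, with Ivl, Lor, Flg, Tgm1, Dsg3, Dsc2, Trex2, Cnfn, Calml3 and Cdsn added; genes of lists were the largest changes past the threshold, with Klf4, Grhl3, Zfp750, Trp63, Krt5 and Krt8 added. Values of other members were added after they were seen.

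Other settings tried were a threshold of 0.01, a fold of at least 2, DESeq2 1.42.0, scaling by RLE, no low-count filter or one of 1 CPM in 3 libraries, fits of the compared groups only, a replicate block, limma 3.58.1 on the deposited signal (log2 after adding 1, mean of 10 or more), and omission of each library in turn. Leaving out the third Torin library of each arm was added after the data were seen.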

Additional observations from a re-analysis of the deposited data

Results flagged for a closer look

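For 13 members the Torin effects in the arms differed by the test of the difference itself (edgeR, log2 effect in D12 minus that in D6). The value was -5.06 for Serpinb10, -4.62 for Trex2, -3.48 for Klk14, -3.39 for Tgm5, -2.25 for Cdsn, -1.59 for Serpinb8, -1.58 for Serpinb2, -1.37 for Dsg3, -1.04 for Tgm1 and -1.01 for Klk8. It was 0.83 for Tgm2, 0.97 for Serpinb9 and 2.01 for Klk7. All 13 also passed without the third Torin library of each arm. Those of Klk8, Serpinb2, Serpinb10 and Tgm1 were lost in 7 to 10 of the 12 omissions of 1 library. Klk8 and Tgm1 were lost under some changes of method as well. The differences of Serpinb9 and Tgm2 were not followed through these omissions. The arms differ in batch tag, treatment length and start, which cannot be told apart.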

How the results depend on the processing

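Depth limits this set: 70 of 109 members were too low to test, and calls below about 1 CPM rest on few counts. The numbers of members called kept within 1.5 times under the other alternatives, with these exceptions, whose cause was not tested unless the setting itself makes fewer calls. At 2-fold or more, 3 rose and 4 fell with estradiol. In D12 the number that rose was 0 at an adjusted p under 0.01 and with the stricter filter, 2 with no filter and 2 without the third Torin libraries, and 0 to 1 with 1 library left out (0 without any 1 of the DMSO D12 or Torin D12 libraries other than Torin D12 library 1). For the difference between arms, 1 was positive at an adjusted p under 0.01 and 1 at 2-fold or more, and 5 with DESeq2; 5 were negative at an adjusted p under 0.01, and 6 to 9 with 1 library left out, 6 without DMSO D6 library 3, Torin D6 library 1, DMSO D12 library 3, Torin D12 library 1 or Torin D12 library 2. For DMSO D12 against D6, 2 were higher with DESeq2, 2 in the fit of these groups alone, 1 with no filter and 1 without the third Torin libraries. With the replicate number as a block, 7 rose and 9 fell with estradiol, 4 and 17 in D6, 1 and 23 in D12, and 2 differences were positive and 8 negative; the samples share only a number.

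Values that changed sign were those of members with no call in that comparison. With 1 library left out, Dsc2 with estradiol ranged from -0.03 to 0.05. In D6 Klk10 ranged from -0.13 to 0.15 and Dsg3 from -0.06 to 0.02, and in D12 Ivl from -0.84 to 0.05 and Tgm5 from -0.81 to 0.09. Between DMSO groups Ivl ranged from -0.50 to 0.45, Lor from -0.62 to 0.01 and Tgm1 from -0.28 to 0.08. In the difference between arms Serpinb5 ranged from -0.13 to 0.10, Cstdc5 from -0.52 to 0.10, Lor from -1.44 to 0.09 and Sprr1b from -0.12 to 2.98. Ivl between DMSO groups was 0.01 with the block, and Sprr2h in the difference was 0.12 without the third Torin libraries.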
